A study of Mus musculus with 11 samples.

Results

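Knockdown of Mettl3 was compared directly with knockdown of Mettl14 in aTC1-6 cells, a clonal mouse pancreatic alpha cell line derived from a glucagon-secreting tumour. The members are 8 of the 11 libraries of the series: 4 labelled Mettl3 knockdown (Mettl3 KD) and 4 labelled Mettl14 knockdown (Mettl14 KD), chosen by their titles. Both groups were transfected during plating at a stated 70% confluency, kept in the line's usual medium and harvested 72 h afterwards. The remaining 3 libraries, from cells given a scramble control, took no part in the test. Their levels are printed beside those of the knockdown libraries as the background. Messenger RNA was sequenced, and each value is a count estimate per gene. The sources used here do not give the kind of knockdown reagent or the number of sequences used against each gene.

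METTL3 and METTL14 are partners in one nuclear enzyme that places a methyl group on adenosines of messenger RNA, the mark called m6A. METTL3 holds the active site, while METTL14 has a methyltransferase fold without its own activity and helps hold the RNA substrate. WTAP, VIRMA, RBM15, RBM15B, ZC3H13 and CBLL1 bring the pair to its targets. YTH-domain proteins that read the mark can recruit the CCR4-NOT deadenylase, which shortens poly(A) tails. Alpha cells make glucagon from the Gcg transcript, cut it out of its precursor with the convertase PCSK2 and store it in dense-core granules. The comparison asks where depletion of the one subunit leaves a different transcriptome from depletion of the other.

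Totals of the 8 libraries ran from 20944085 counts, in Mettl14 KD replicate 2, to 22406527. The first principal component, with 24.4% of the variance, put the 4 Mettl3 KD libraries between -11.6 and -9.4 and the 4 Mettl14 KD libraries between 7.7 and 12.7. The second, with 16.9%, set Mettl14 KD replicate 2 at 19.8 and every other library between -9.7 and 2.8. Scramble replicate 2 stood apart among the controls: its summed level of 16 lung and blood transcripts was 133.5 CPM, and the lowest control was at 3.39 CPM. Values are CPM, counts relative to the library total, with TMM scaling between libraries. Summed levels of lists, and levels of markers too low to be tested, are CPM without that scaling. Log2 fold changes are Mettl3 KD minus Mettl14 KD, so that a positive value is higher in Mettl3 KD. A CPM mean carries its SD over 4 libraries (n = 4), and a log2 fold change its SE, after the sign ±. Whether replicates came from separate cultures is not in the labels, so each p-value rests on a spread between libraries that may be technical. "Called" means an adjusted p of at most 0.05 in edgeR's quasi-likelihood test, adjusted by the Benjamini-Hochberg method over all 13635 genes tested.

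The targeted transcripts differed as the labels state. Mettl3 was at 5.04, 5.0, 5.98 and 5.28 CPM in the Mettl3 KD libraries and at 15.9, 14.2, 16.5 and 14.9 CPM in the Mettl14 KD libraries. Scramble was at 13.9, 14.6 and 16.0 CPM, with Mettl14 KD replicate 3 above that range and the other Mettl14 KD libraries within it. Every Mettl3 KD library lay far below both groups. The difference was -1.53 ± 0.08 on the log2 scale (adjusted p = 1.53e-17, edgeR's quasi-likelihood test). Mettl14 was at 29.0, 30.4, 29.7 and 28.0 CPM in Mettl3 KD and at 14.9, 14.2, 15.5 and 13.9 CPM in Mettl14 KD. The lowest Mettl3 KD library was above the highest scramble library (25.3, 23.3 and 26.7 CPM), and the Mettl14 KD libraries were all below them. The Mettl14 difference was 1.0 ± 0.05 (adjusted p = 1.53e-17, edgeR's quasi-likelihood test). The Mettl14 KD libraries thus kept a larger share of their target, 14.6 of 25.1 CPM against 5.32 of 14.8 CPM for Mettl3. The depth of each knockdown, and any effect of its reagent on other genes, cannot be told apart from the subunit that was targeted.

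**Figure D1:**
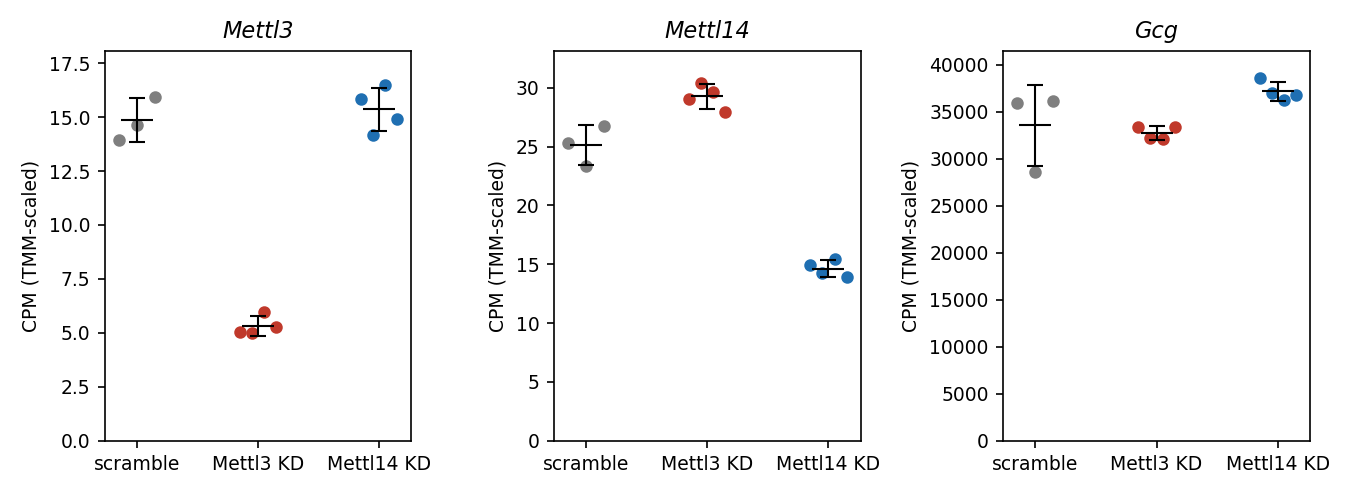
Levels of Mettl3, Mettl14 and Gcg in each library, in TMM-scaled CPM on axes that start at 0. Points are libraries, and bars give the mean and SD of 3 scramble, 4 Mettl3 KD and 4 Mettl14 KD libraries. Each targeted transcript is lowest in its own knockdown, and Gcg is lower in all 4 Mettl3 KD libraries than in any Mettl14 KD library.

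Of the other members of the methyltransferase complex, Virma and Rbm15 rose in Mettl3 KD relative to Mettl14 KD. Virma, the scaffold subunit, was at 91.4, 92.7, 94.9 and 97.7 CPM against 85.2, 83.9, 86.7 and 84.3 CPM, a difference of 0.15 ± 0.03 (adjusted p = 0.000393, edgeR's quasi-likelihood test). Rbm15, which binds RNA near methylated sites, was at 44.2, 44.6, 48.8 and 44.8 CPM against 38.5, 37.6, 39.9 and 37.9 CPM, a difference of 0.24 ± 0.04 (adjusted p = 1.95e-05, edgeR's quasi-likelihood test). For neither gene did the groups overlap. For Rbm15 the scramble libraries, at 42.5 to 45.0 CPM, lay above every Mettl14 KD library. For Virma they lay at 80.1 to 83.8 CPM, below both knockdowns. Wtap (0.07), Cbll1 (0.09), Zc3h13 (0.04) and Rbm15b (-0.03) were not called. Counting the targets themselves, 3 of 8 members rose and 1 fell. Among all genes tested 7.83% were called higher in Mettl3 KD and 8.21% lower.

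The knockdowns differed at many genes by small amounts. In all, 2187 of 13635 genes were called, 16.0%, with 1068 higher and 1119 lower in Mettl3 KD. The median change of a called gene was 1.11-fold, and the median over all genes tested was 0.00 on the log2 scale. Of the called genes, 129 (0.946% of genes tested) were at least 1.2-fold higher and 233 (1.71%) at least 1.2-fold lower in Mettl3 KD. At least 1.5-fold higher were 25 genes (0.183%) and at least 1.5-fold lower 44 (0.323%). Calls varied with abundance: of 3 equal groups by mean CPM, 5.57% of genes were called in the lowest, 16.2% in the middle and 26.4% in the highest. When all 11 libraries shared one estimate of the spread, 1145 genes were called (8.10% of 14133), 517 higher (3.66%) and 628 lower (4.44%). The common biological coefficient of variation was then 4.38%, against 2.85% over the 8 knockdown libraries. With every library but scramble replicate 2, an alternative chosen after seeing the data, the coefficient was 2.93% and 2125 genes were called.

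**Figure D2:**
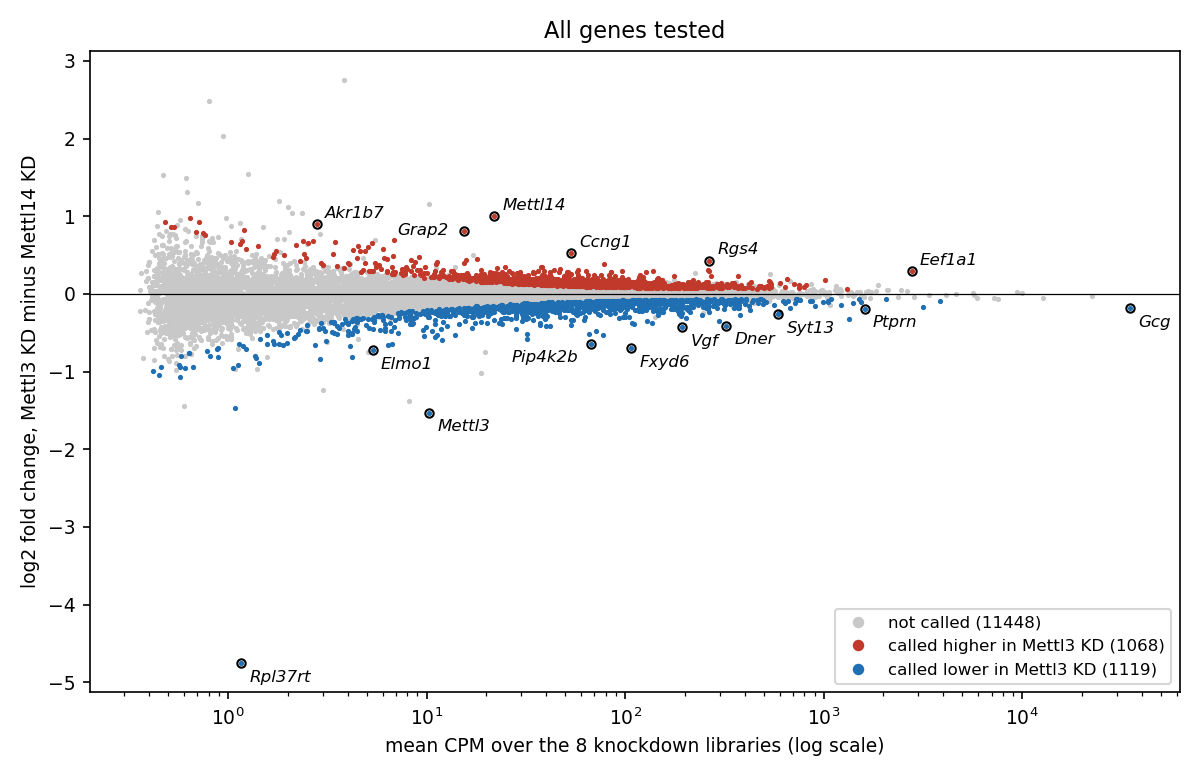
Log2 fold change of each of 13635 genes, Mettl3 KD minus Mettl14 KD, against its mean CPM over the 8 knockdown libraries on a log axis. Each point is a gene, coloured where it was called. Circled genes are described in the text, and the highest of them by level, Gcg, lies below 0 at -0.18.

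The largest differences outside the targets involved genes of several kinds. Fxyd6, a small membrane protein that regulates the sodium-potassium pump, was at 88.7, 78.5, 81.3 and 78.8 CPM in Mettl3 KD and at 134, 140, 126 and 131 CPM in Mettl14 KD. The scramble libraries, at 128 to 138 CPM, lay with the Mettl14 KD libraries. Pip4k2b, a phosphoinositide kinase, was at 50.1, 55.3, 51.8 and 52.1 CPM against 82.5, 80.5, 83.7 and 79.8 CPM, again with scramble (77.3 to 91.8 CPM) around the Mettl14 KD level. Both fell in Mettl3 KD relative to Mettl14 KD, by 0.70 ± 0.04 (adjusted p = 1.03e-11) and by 0.64 ± 0.03 (adjusted p = 1.53e-17, edgeR's quasi-likelihood test). Among genes under 20 CPM, Elmo1, which activates Rac with DOCK proteins, was at 4.03 ± 0.0703 against 6.66 ± 0.492 CPM. Rabggta, the alpha subunit of the enzyme that prenylates Rab proteins, was at 4.98 ± 0.446 against 7.87 ± 0.810 CPM. B3galt1, a galactosyltransferase, was at 9.58 against 14.5 CPM. The 12 genes with the largest fall were taken from called genes with a symbol, no overlap and at least 50 normalised counts on average. Also lower among them were Rsc1a1 (-0.82) and Cbs (-0.65). So were the transcripts Gm48128 (-0.84), AC122442.1 (-0.67), 6330403L08Rik (-0.64) and Gm45899 (-0.60), which are noncoding or pseudogene models in GENCODE vM21. Gm48128 is a processed pseudogene, so its reads may belong to a parent gene, and it lost its call in the fit of 11 libraries.

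Grap2, an adaptor protein best known from T cells, led the higher genes after Mettl14 among those over 10 CPM. It was at 20.6, 20.4, 18.5 and 19.1 CPM in Mettl3 KD and at 10.5, 10.6, 10.9 and 12.6 CPM in Mettl14 KD, a difference of 0.81 ± 0.07 (adjusted p = 3.18e-12, edgeR's quasi-likelihood test). Scramble, at 13.6 to 15.9 CPM, lay between the knockdowns. The metabolic enzymes Akr1b7 (0.90), Fbp2 (0.69), Dcxr (0.60) and Dglucy (0.56) and the growth factors Cntf (0.66) and Tgfb2 (0.62) rose as well. Th, tyrosine hydroxylase, was at 5.80 against 3.93 CPM with scramble at 6.12 CPM. Mavs, an adaptor of antiviral signalling, was at 7.21 against 4.81 CPM with scramble at 4.84 CPM. The direction against scramble thus varied from gene to gene: the Mettl14 KD level of Th lay below scramble, while the Mettl3 KD level of Mavs lay above it.

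A gene of very low level gave the biggest fitted change and was named after its values were seen. Rpl37rt, a retrotransposed copy of the ribosomal protein gene Rpl37, was at 0.312 CPM in Mettl3 KD replicate 1 and listed at 0 in the other Mettl3 KD libraries. Mettl14 KD had 2.17, 2.73, 1.53 and 2.62 CPM and scramble 1.76 to 4.63 CPM. The groups did not overlap (adjusted p = 0.000944, edgeR's quasi-likelihood test). Reads of a near-identical copy are shared out by estimation, so the level of this gene is uncertain beyond its counts.

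Among genes of at least 100 CPM, Dner, a neuronal Notch ligand, gave one of the clearest differences. It was at 283, 275, 273 and 272 CPM in Mettl3 KD and at 376, 366, 361 and 362 CPM in Mettl14 KD, with scramble between them at 303 to 326 CPM (-0.41 ± 0.02, adjusted p = 2.71e-16, edgeR's quasi-likelihood test). Mesd, a chaperone of LRP5 and LRP6, was at 118 ± 2.88 against 154 ± 1.36 CPM. Scrt1, a zinc finger repressor of neuronal and endocrine cells, was at 113 ± 2.19 against 144 ± 3.25 CPM, and scramble was at 144 CPM. In the other direction Rgs4, which shortens G protein signalling, was at 312, 298, 307 and 305 CPM against 233, 218, 230 and 226 CPM, with scramble between them at 251 to 262 CPM (0.43 ± 0.03, adjusted p = 3.51e-16, edgeR's quasi-likelihood test). Tmem65 (0.31), Abcb6, a porphyrin transporter (0.28), and the lysosomal sulfatase gene Ids (0.23) rose too. Emp1 fell by 0.34 on the same scale. For Dner and Rgs4 the knockdowns thus lay on either side of scramble.

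Transcripts of the secretory granule were mostly lower in Mettl3 KD than in Mettl14 KD. Of 16 measured granule and hormone-processing genes, 9 fell, 1 rose and 6 were not called. The list median was -0.08, against 0.00 over all genes, and 11 of 16 genes had groups that did not overlap, against 18.2% of all genes tested. The 9 that fell were Vgf, Chgb, Ptprn, Gcg, Scg2, Scg5, Ttr, Pcsk2 and Cpe.

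Gcg itself was at 33325, 32176, 32067 and 33424 CPM in Mettl3 KD and at 38641, 37038, 36300 and 36817 CPM in Mettl14 KD. Every Mettl3 KD library was below every Mettl14 KD library, by -0.18 ± 0.02 in the fit (adjusted p = 4.17e-08, edgeR's quasi-likelihood test). Scramble was at 35904, 28607 and 36174 CPM: replicates 1 and 3 lay between the knockdown groups and replicate 2 below both. In the fit of 11 libraries Gcg lost its call (adjusted p = 0.0991, edgeR's quasi-likelihood test).

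Vgf, a granule protein cut into neuroendocrine peptides, moved most within the list. Its Mettl3 KD libraries were at 178, 161, 159 and 161 CPM, its Mettl14 KD libraries at 228, 225, 222 and 214 CPM and its scramble libraries at 298, 325 and 284 CPM. The 3 groups did not overlap, and the knockdowns differed by -0.43 ± 0.03 (adjusted p = 2.9e-11, edgeR's quasi-likelihood test). Chgb, chromogranin B, was at 1195, 1246, 1125 and 1210 CPM against 1479, 1576, 1440 and 1471 CPM, and its scramble libraries lay at 1212, 917 and 1209 CPM, near the Mettl3 KD level (-0.32 ± 0.03). Ptprn, a transmembrane granule protein, was at 1535, 1485, 1450 and 1529 CPM against 1728, 1711, 1709 and 1700 CPM, and its scramble libraries lay at 1743 to 1779 CPM, above both (-0.19 ± 0.02). Vgf and Ptprn were therefore nearer scramble in Mettl14 KD, and Chgb was nearer scramble in Mettl3 KD.

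Relative to Mettl14 KD, the sorting protein gene Scg2 fell by 0.17 and the PCSK2 chaperone gene Scg5 by 0.14. The transthyretin gene Ttr fell by 0.11, Pcsk2 by 0.09 and the carboxypeptidase gene Cpe by 0.06. Mean scramble levels lay below both knockdown means for Scg2 (2841 CPM) and Ttr (1164 CPM). They lay above both for Scg5 (353 CPM) and between them for Pcsk2 (3927 CPM) and Cpe (714 CPM). Slc30a8, the zinc transporter of the granule, rose by 0.10. Chga, chromogranin A, was at 3369 against 3401 CPM and was not called (-0.01). Pcsk1, the convertase of beta and L cells, was at 1.67 against 1.71 CPM and was not called either. In the fit of 11 libraries 4 of the 9 calls were left, and the losses were Chgb, Gcg, Ttr, Pcsk2 and Cpe. With scramble replicate 2 alone left out, 9 genes were called lower.

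Some genes of granule docking and fusion fell too. Of 23 measured, 7 fell and 1 rose, with a list median of -0.05, beside 8.21% of all genes called lower and 7.83% called higher. Syt13, an atypical synaptotagmin, was at 552, 541, 525 and 533 CPM against 638, 656, 646 and 641 CPM, with scramble between them at 564 to 578 CPM (-0.26 ± 0.02, adjusted p = 1.66e-11, edgeR's quasi-likelihood test). Snap25, the plasma membrane SNARE, was at 175, 184, 176 and 175 CPM against 218, 215, 207 and 202 CPM, with scramble at 197 to 231 CPM around the Mettl14 KD level (-0.25 ± 0.03, adjusted p = 9.96e-09, edgeR's quasi-likelihood test). Neither gene's knockdown groups overlapped. The calcium sensor genes Syt5 (-0.29) and Syt1 (-0.20), the priming factor Cadps (-0.20) and the complexin gene Cplx2 (-0.20) fell as well. For Syt1 the groups overlapped, since Mettl3 KD replicate 3 was at 31.5 CPM and Mettl14 KD replicate 1 at 31.0 CPM. Vamp3, a SNARE of recycling endosomes, rose by 0.15. The count of 7 lower genes was also reached with all 11 libraries, and leaving out any 1 knockdown library gave 7 or 8.

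**Figure D3:**
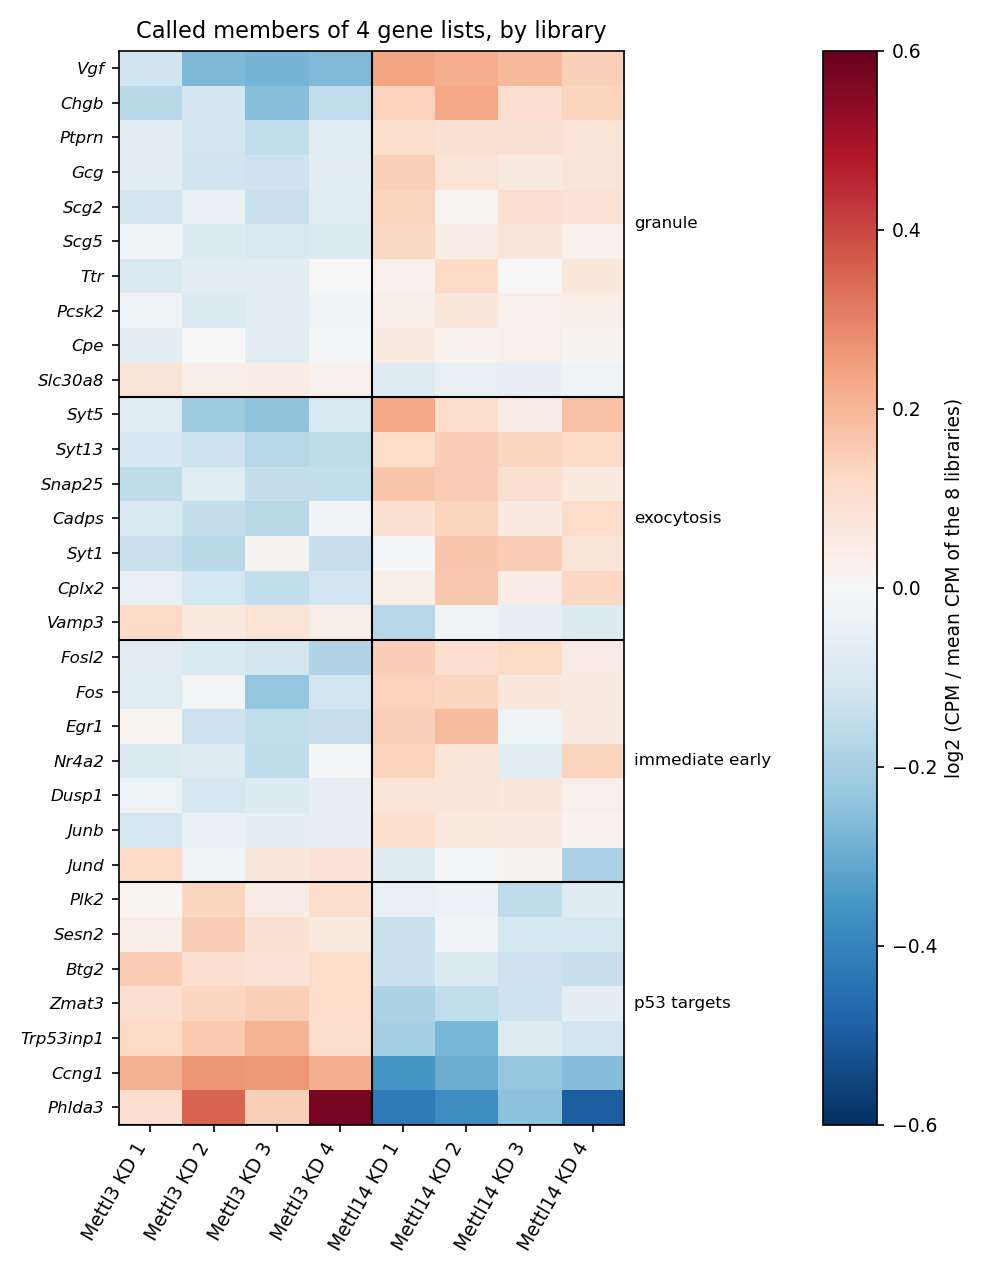
Level of each of 31 called genes in the 8 knockdown libraries, as the log2 of its CPM over its mean across those libraries, for granule, exocytosis, immediate early and p53 target genes. Colours run from -0.6 to 0.6, and the values from -0.49 to 0.57. Most granule and exocytosis genes are blue in the 4 Mettl3 KD columns, and the p53 targets are red there.

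Genes induced at once by calcium, cAMP and growth factor signals were also called lower more often than higher, though the differences were small and the count depended on single libraries. Of 21 immediate early genes measured, 6 fell, 1 rose and 14 were not called, with a list median of -0.05, beside 8.21% of all genes called lower and 7.83% higher. Fosl2, an AP-1 subunit gene, was at 143, 140, 138 and 132 CPM against 166, 161, 162 and 155 CPM, and scramble lay above both at 177 to 190 CPM (-0.22 ± 0.03, adjusted p = 2.99e-07, edgeR's quasi-likelihood test). Dusp1, a phosphatase of MAP kinases, was at 160, 152, 154 and 158 CPM against 173, 172, 171 and 167 CPM, and scramble lay below both at 128 to 148 CPM (-0.13 ± 0.03, adjusted p = 0.000387, edgeR's quasi-likelihood test). The order of the knockdowns was thus the same for both genes, and that of scramble was not. Fos (-0.20), Egr1 (-0.19), Nr4a2 (-0.15) and Junb (-0.12) fell relative to Mettl14 KD, and Jund rose by 0.13. Mean scramble levels lay below both knockdown means for Fos (11.7 CPM) and Nr4a2 (24.2 CPM). They lay above both for Egr1 (20.7 CPM), Junb (40.2 CPM) and Jund (141.8 CPM). Nr4a1 was at 73.2 against 78.8 CPM and was not called (adjusted p = 0.106, edgeR's quasi-likelihood test), while its scramble libraries lay at 38.5 to 46.7 CPM. Lower genes numbered 2 without Mettl3 KD replicate 3, 3 without Mettl3 KD replicate 4, 2 without Mettl14 KD replicate 1 and 3 in the fit of 11 libraries. DESeq2 called 2 lower. The rise of Jund was barely called (adjusted p = 0.0489, edgeR's quasi-likelihood test), and most fits that dropped 1 library did not call it. Its call also went under RLE or upper-quartile factors, a minimum count of 30, a replicate block and all 11 libraries. DESeq2 and limma-voom kept it.

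A full cAMP response element, TGACGTCA, lies before the start of a few of these genes. This motif, a palindrome that reads the same on both strands and binds factors such as CREB, was chosen for a search after the values were seen. It was counted in RefSeq promoter windows of build GRCm38.p6, which run from 250 bases before to 50 after each gene's start. Of 12 granule genes with a window 3 held it (Chgb, Scg2 and Pcsk1), of 13 exocytosis genes 0, of 18 immediate early genes 2 (Dusp1 and Maff) and of 16 p53 targets 2 (Btg2 and Plk2). Chgb, Scg2 and Dusp1 were called lower in Mettl3 KD, Btg2 and Plk2 higher, and Pcsk1 and Maff were not called. The 200 bases before the start of Chgb, Scg2, Dusp1 and Plk2 are shown because their shared motif did not go with a shared direction. The stretches lie at chr2:132781442-132781641 (plus strand), chr1:79440027-79440226 (minus strand), chr17:26508473-26508672 (minus strand) and chr13:110394844-110395043 (plus strand), each printed 5′ to 3′ with the motif in capitals.
Chgb: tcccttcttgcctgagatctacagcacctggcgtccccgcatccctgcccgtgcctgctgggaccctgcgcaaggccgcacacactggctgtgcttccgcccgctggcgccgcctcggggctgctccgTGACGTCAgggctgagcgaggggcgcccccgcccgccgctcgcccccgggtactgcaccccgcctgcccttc
Scg2: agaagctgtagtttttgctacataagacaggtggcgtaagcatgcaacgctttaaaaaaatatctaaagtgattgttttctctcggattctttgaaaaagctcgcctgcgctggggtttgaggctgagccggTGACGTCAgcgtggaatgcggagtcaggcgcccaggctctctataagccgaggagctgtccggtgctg
Dusp1: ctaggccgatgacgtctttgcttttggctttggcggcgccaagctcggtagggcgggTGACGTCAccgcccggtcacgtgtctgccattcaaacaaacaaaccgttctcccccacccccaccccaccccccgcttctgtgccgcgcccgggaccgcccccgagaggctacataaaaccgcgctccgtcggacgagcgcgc
Plk2: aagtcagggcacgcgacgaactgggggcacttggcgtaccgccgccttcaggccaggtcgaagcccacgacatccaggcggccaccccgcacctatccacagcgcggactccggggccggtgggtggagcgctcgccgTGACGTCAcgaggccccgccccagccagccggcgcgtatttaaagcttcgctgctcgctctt

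The first base of the motif lies 72 bases before the start of Chgb, 68 before that of Scg2, 143 before that of Dusp1 and 62 before that of Plk2. Of all 32851 windows, 1.79% held the motif, and of the 9995 genes tested that matched a window, 383 held it (3.83%). Of those 383 genes, 10.2% were called higher in Mettl3 KD and 7.31% lower, against 8.66% and 8.25% of all genes tested with a window. The motif did not stand out among the genes called lower: 28 of 825 held it, 3.39%, and 39 of the 866 called higher, 4.50%. A match is a description of these letters and not of a bound site. Among the granule, exocytosis and immediate early genes named above, Vgf, Cpe, Slc30a8, Ttr, Snap25, Syt13, Syt5, Vamp3 and Egr1 had no window here, nor had the p53 targets Trp53inp1 and Zmat3.

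Targets of p53, the factor that answers DNA damage and other stress, lay on the higher side. Of 19 measured, 7 rose, none fell and 12 were not called, with a list median of 0.06. Of all genes 7.83% were called higher. Ccng1, cyclin G1, was at 61.5, 63.8, 63.5 and 61.9 CPM in Mettl3 KD, at 41.6, 43.3, 45.2 and 44.3 CPM in Mettl14 KD and at 36.3, 46.7 and 39.3 CPM in scramble. Every Mettl3 KD library was above every other library (0.52 ± 0.04, adjusted p = 3.74e-14, edgeR's quasi-likelihood test). The Mettl14 KD libraries lay above scramble replicates 1 and 3 and below scramble replicate 2. Phlda3, which holds back AKT, was at 2.86, 3.39, 2.94 and 3.95 CPM against 1.99, 2.06, 2.24 and 1.89 CPM, with scramble between and among them at 2.10 to 2.84 CPM (0.68 ± 0.14, adjusted p = 0.000551, edgeR's quasi-likelihood test). Trp53inp1, a p53 cofactor gene, rose by 0.31, and Zmat3, an RNA-binding protein gene, by 0.25. The antiproliferative gene Btg2 rose by 0.23, the sestrin gene Sesn2 by 0.17 and the polo-like kinase gene Plk2 by 0.15. The groups did not overlap for any of these 7 genes. Over the list, 8 of 19 genes had groups that did not overlap, against 18.2% of all genes tested.

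Not every p53 target was called. Cdkn1a, the p21 cell cycle inhibitor, was at 92.0 against 88.1 CPM with scramble at 121.6 CPM (0.06). Mdm2, which degrades p53, was at 74.1 against 72.7 CPM (0.03). Neither was called, although the Cdkn1a groups did not overlap. The count of 7 was reached with all 11 libraries, by DESeq2 and by limma-voom, and leaving out any 1 knockdown library gave 7 or 8.

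Genes that read, remove or act downstream of m6A were counted next. Of 12 measured erasers and readers 3 were called, and of 17 deadenylase genes 3, beside 16.0% of all genes tested. Ythdf1 (0.12) and Ythdf2 (0.11), cytoplasmic readers of the mark, rose, and Fmr1, an RNA-binding protein gene linked to the mark, fell by 0.09. The demethylase genes Fto and Alkbh5 were not called. Ythdf2 and Fmr1 lost their calls without some single libraries and in the fit of 11 libraries. The 3 deadenylase genes called all rose: Cnot11, a CCR4-NOT subunit, was at 58.0, 56.4, 57.3 and 53.9 CPM against 46.1, 45.8, 48.0 and 46.2 CPM (0.28 ± 0.04, adjusted p = 3.27e-07, edgeR's quasi-likelihood test), and the deadenylase-binding genes Btg2 (0.23) and Btg1 (0.11) were the others. The Cnot11 groups did not overlap. Its scramble libraries were at 46.3, 56.4 and 50.3 CPM, of which only replicate 2 reached the Mettl3 KD range. Btg1 lost its call without some single libraries, by DESeq2 and in the fit of 11 libraries. Its groups overlapped, and its scramble mean of 84.9 CPM lay above both knockdowns (73.6 against 68.3 CPM).

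Some effectors of microRNA silencing fell. Of 13 measured, 4 fell and 1 rose, beside 8.21% of all genes called lower and 7.83% higher, although the list median was 0.01. Ago1, which carries the guiding microRNA, was at 44.9, 42.5, 44.7 and 45.8 CPM against 53.6, 55.4, 55.7 and 54.8 CPM, with scramble at 56.8 to 58.4 CPM (-0.30 ± 0.04, adjusted p = 6.28e-08, edgeR's quasi-likelihood test). Every Mettl3 KD library was lowest. Ago2 fell by 0.12, and the GW182 scaffold genes Tnrc6c and Tnrc6a fell by 0.18 and 0.10. The Tnrc6a call was lost without Mettl3 KD replicate 4, without Mettl14 KD replicate 4 and with 11 libraries. Tarbp2, a partner of Dicer, rose by 0.17, a call lost without some single libraries, by DESeq2, by limma-voom and with 11 libraries. Transcripts of this list are long, with a median length of 7227 bases.

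Some cytosolic ribosomal protein genes rose in Mettl3 KD relative to Mettl14 KD, by small amounts. Of 40 measured, 12 rose, none fell and 28 were not called, with a list median of 0.06, beside the 7.83% of all genes called higher. Rps20 was at 127, 138, 126 and 136 CPM against 114, 119, 106 and 116 CPM, with scramble at 102 to 120 CPM (0.22 ± 0.03, adjusted p = 4.1e-05, edgeR's quasi-likelihood test). Rps16 was at 286, 274, 269 and 272 CPM against 244, 241, 257 and 247 CPM, with scramble lower at 208 to 226 CPM (0.15 ± 0.03, adjusted p = 2.71e-05, edgeR's quasi-likelihood test). For both genes the lowest Mettl3 KD library lay above the highest Mettl14 KD library. Over the list, 7 of 40 genes had groups that did not overlap, against 18.2% of all genes tested. Rplp0 (0.18), Rpl15 (0.16), Rps3 (0.13), Rpl14 (0.11), Rps19 (0.11), Rpl8 (0.11), Rpl13a (0.09), Rpl11 (0.08) and Rps4x (0.08) were also called. The elongation factor gene Eef1a1 was at 3049 ± 42.5 against 2498 ± 26.0 CPM, with scramble at 2399 to 2728 CPM (0.29 ± 0.02). These genes have many processed pseudogenes, among which an estimate can split reads. The count fell to 7 without Mettl3 KD replicate 1, to 6 without Mettl14 KD replicate 3 and to 3 in the fit of 11 libraries; with a replicate block it was 16.

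Reads of ribosomal RNA made in mitochondria were higher as well, while the 13 mitochondrially encoded protein transcripts gave no call. Messenger RNA was sequenced, and whether these reads follow the level of ribosomal RNA was not tested. mt-Rnr1 was at 291, 285, 303 and 282 CPM against 237, 229, 232 and 244 CPM, and mt-Rnr2, named after its values were seen, at 1085, 1082, 1066 and 1052 CPM against 988, 937, 927 and 943 CPM. The differences were 0.30 ± 0.03 and 0.18 ± 0.02 (adjusted p = 2.72e-11 and 2.58e-07, edgeR's quasi-likelihood test). Neither gene's knockdown groups overlapped. Scramble was at 206, 261 and 198 CPM for mt-Rnr1, on either side of the Mettl14 KD level. For mt-Rnr2 it was at 852, 895 and 769 CPM, below both knockdowns. In the fit of 11 libraries the adjusted p of mt-Rnr1 was 0.0417 (edgeR's quasi-likelihood test). The nuclear genes of oxidative phosphorylation gave 6 lower and 1 higher call of 34: Ndufa10, a complex I subunit, was at 173 against 200.4 CPM (-0.21), and Uqcrfs1, the Rieske protein of complex III, at 219 against 199 CPM (0.14). Lower genes of this list numbered 3 without Mettl3 KD replicates 3 or 4 or Mettl14 KD replicates 1, 2 or 4, and 1 with 11 libraries. Of all genes tested, 8.21% were called lower and 7.83% higher.

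Transcript length went with direction across the genes. The 13280 genes with a transcript model in GENCODE vM21 were put in 5 equal groups by length. The shortest (67 to 1665 bases) gave 264 higher and 112 lower calls, with a median of 0.03. The longest (over 5068 bases) gave 158 higher and 331 lower calls, with a median of -0.02. Spearman's rho between length and log2 fold change was -0.13 across genes, which are not independent and share libraries. For GC content rho was 0.11, and for the number of GGACU per kilobase, the core of the motif in which m6A is found, it was 0.03. The ribosomal protein genes had a median length of 1014.5 bases, the nuclear oxidative phosphorylation genes 1186.5 bases and the mitochondrially encoded transcripts 784.0 bases. The median log2 fold change of the ribosomal list was 0.06 and that of each of the other lists -0.02. The part of length in these results was not tested. The p53 targets, at 2800.0 bases, and the granule genes, at 2449.5 bases, had medians in the middle and the second shortest group.

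**Figure D4:**
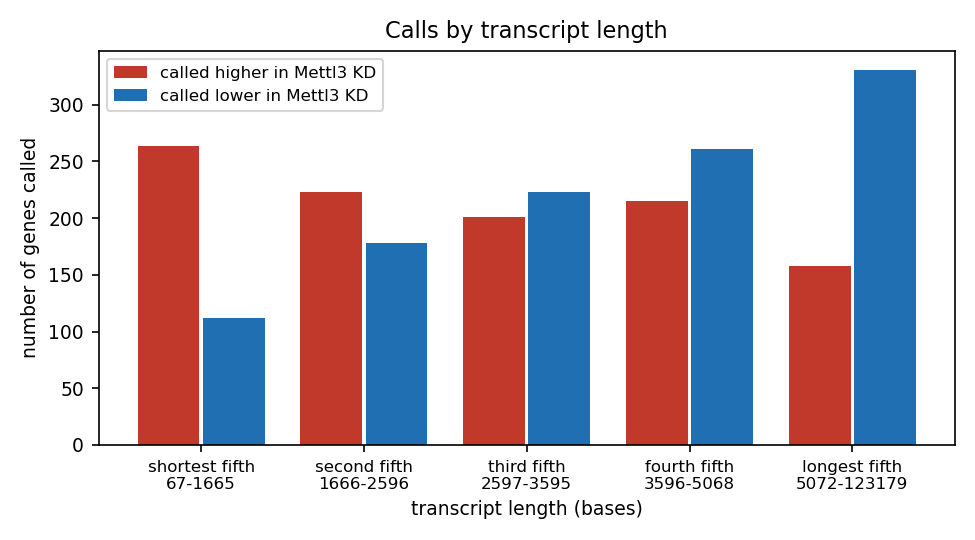
Number of genes called higher or lower in Mettl3 KD, in 5 equal groups of 13280 genes by the length of their transcript model in bases. Higher calls fall from 264 in the shortest group to 158 in the longest, and lower calls climb from 112 to 331.

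Genes of sterol synthesis and uptake were lower in Mettl3 KD more often than higher. Of 25 measured, 9 fell and 2 rose, with a list median of -0.04, beside 8.21% of all genes called lower and 7.83% higher. The list summed to 4579 to 4596 CPM in Mettl3 KD, 4686 to 4836 CPM in Mettl14 KD and 6090 to 6457 CPM in scramble. Srebf2, the master regulator of the pathway, was at 348, 343, 346 and 341 CPM in Mettl3 KD, at 404, 415, 413 and 429 CPM in Mettl14 KD and at 481, 501 and 466 CPM in scramble (-0.27 ± 0.02, adjusted p = 2.43e-11, edgeR's quasi-likelihood test). The 3 groups did not overlap. The synthesis genes Nsdhl (-0.12), Lss (-0.11), Idi1 (-0.08) and Fdps (-0.08) and the SREBP retention gene Insig1 (-0.07) were among the others that fell. Fdps and Insig1 lost their calls in most fits that left out 1 library, by DESeq2 and with 11 libraries. The mevalonate kinase gene Mvk rose by 0.15, at 35.5 against 31.9 CPM, with scramble above both at 42.3 CPM. Higher genes numbered 0 to 3 on leaving out 1 library, with 0 without Mettl3 KD replicate 4. Without Mettl14 KD replicate 1, 5 genes were called lower, and 3 with 11 libraries. Fatty acid genes gave 5 lower and 1 higher call of 18, led by Acsl4 (-0.20) and Elovl6 (-0.16). The stearoyl-CoA desaturase genes Scd1 (-0.13) and Scd2 (-0.11) fell, and Scd2 was at 1008 against 1087 CPM, while scramble was at 2255 CPM.

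Folding and stress genes split within their lists. Of 22 genes of the endoplasmic reticulum, 5 rose and 3 fell, beside 7.83% of all genes called higher and 8.21% lower. Ern1, the IRE1 sensor that splices Xbp1, was at 80.7, 85.4, 86.2 and 78.1 CPM against 101, 104, 103 and 104 CPM, with scramble at the Mettl14 KD level, 101 to 104 CPM (-0.32 ± 0.03, adjusted p = 6.58e-10, edgeR's quasi-likelihood test). Its Mettl3 KD libraries were the 4 lowest. The cochaperone gene Dnajb9 (-0.29) and Creld2 (-0.15) fell, and Sdf2l1 (0.28), the disulfide isomerase genes Pdia4 (0.14) and Pdia6 (0.08), Dnajb11 (0.08) and the GRP94 gene Hsp90b1 (0.07) rose. Higher genes numbered 3 without Mettl3 KD replicates 2 or 3 or Mettl14 KD replicates 1 or 4, and 2 with 11 libraries. In the cytosol Dnajb1, an HSP40 cochaperone, was at 57.0, 51.1, 54.1 and 54.3 CPM against 77.3, 75.6, 77.6 and 80.1 CPM, below scramble at 80.8 to 84.1 CPM (-0.52 ± 0.03, adjusted p = 1.4e-14, edgeR's quasi-likelihood test). Hsph1 (0.15) and Hsf1 (0.14) rose, and Chordc1 (-0.12) fell. Lower genes of that list numbered 1 without Mettl3 KD replicate 4 and with 11 libraries.

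The antioxidant genes of the NRF2 pathway gave 5 higher and no lower calls of 20: Pgd (0.24), Hmox1 (0.20), Prdx1 (0.14), Tkt (0.09) and Fth1 (0.08). Their count was 3 without Mettl3 KD replicate 3 and 2 with 11 libraries. Of all genes tested, 7.83% were called higher and 8.21% lower. The ATF4 list gave 6 higher and 3 lower calls of 25. Atf4 itself fell by 0.12 and Cebpb by 0.19, while the amino acid genes Slc7a1 (0.14), Shmt2 (0.10), Asns (0.09) and Psat1 (0.09) rose with Sesn2 (0.17) and Ddit4 (0.12). Without Mettl3 KD replicate 4 it gave 3 higher calls, without Mettl14 KD replicate 2 it gave 5 lower calls, and with 11 libraries 2 higher and 1 lower.

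Among clock genes 5 of 18 fell and 1 rose, with a list median of -0.08, beside 8.21% of all genes called lower and 7.83% higher. Nr1d1, the REV-ERB alpha repressor, was at 68.5, 62.9, 70.5 and 68.9 CPM against 81.7, 84.4, 81.2 and 79.4 CPM (-0.27 ± 0.03, adjusted p = 1.66e-07, edgeR's quasi-likelihood test). Its scramble libraries lay above all of these, at 87.7 to 95.7 CPM. The PAR bZIP factor genes Hlf (-0.28) and Dbp (-0.20), the BMAL1 gene Arntl (-0.19) and Bhlhe41 (-0.12) fell. The period genes and Clock were not called. With 11 libraries, 4 of 18 were called lower.

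Genes of alpha cell identity and excitability gave 4 calls of 20 and 3 of 16. Beside these and the lists that follow, 16.0% of all genes tested were called, 7.83% higher and 8.21% lower. Of 20 transcription factor genes, Pax6 (-0.08), Foxa2 (-0.09) and Pou3f4 (-0.10) fell and Rfx6 rose by 0.16. No factor was called lower without Mettl3 KD replicate 2, 3 or 4, by DESeq2 or with 11 libraries, 1 was without Mettl14 KD replicate 2 or 4 and by limma-voom, and Rfx6 was called higher each time. Of 16 channel genes 3 fell, among them Cacnb3 (-0.20) and the KATP channel subunit gene Abcc8 (-0.12). Insulin and IGF signalling gave 3 calls in each direction of 23, with Akt1 (-0.13) and Rictor (-0.17) lower and Tsc2 (0.11) and Igf2r (0.10) higher. Higher calls of that list numbered 1 without Mettl14 KD replicate 1 and with 11 libraries. Glycolysis gave 2 lower calls of 22, Eno2 (-0.18) and Pfkm (-0.10), with a list median of 0.03. That list gave no higher call, but 5 with a replicate block, 3 by limma-voom, 2 by DESeq2 and 2 with 11 libraries. Its lower calls numbered 1 with 11 libraries or with any 1 of Mettl3 KD replicate 4 and Mettl14 KD replicates 1, 3 and 4 left out. Eno2 was at 348 against 394 CPM while scramble was at 656 CPM. The 8 SOCS genes gave no call. Replication genes gave 2 higher and 1 lower call of 25 and mitosis genes 1 higher and 5 lower of 25. Lower mitosis genes numbered 2 without Mettl14 KD replicate 3, 3 without Mettl3 KD replicate 4 and 1 with 11 libraries, a fit in which no replication gene was called. Replication genes gave 1 higher and no lower call with any 1 of Mettl3 KD replicates 2 and 4 and Mettl14 KD replicate 3 left out. Interferon and MHC class I genes gave 1 higher and 4 lower calls of 22, among them B2m (-0.23), and no call with 11 libraries. Lower genes of that list numbered 1 without Mettl3 KD replicate 2 and by DESeq2, and 2 with any 1 of Mettl3 KD replicate 3 and Mettl14 KD replicates 3 and 4 left out.

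**Figure D5:**
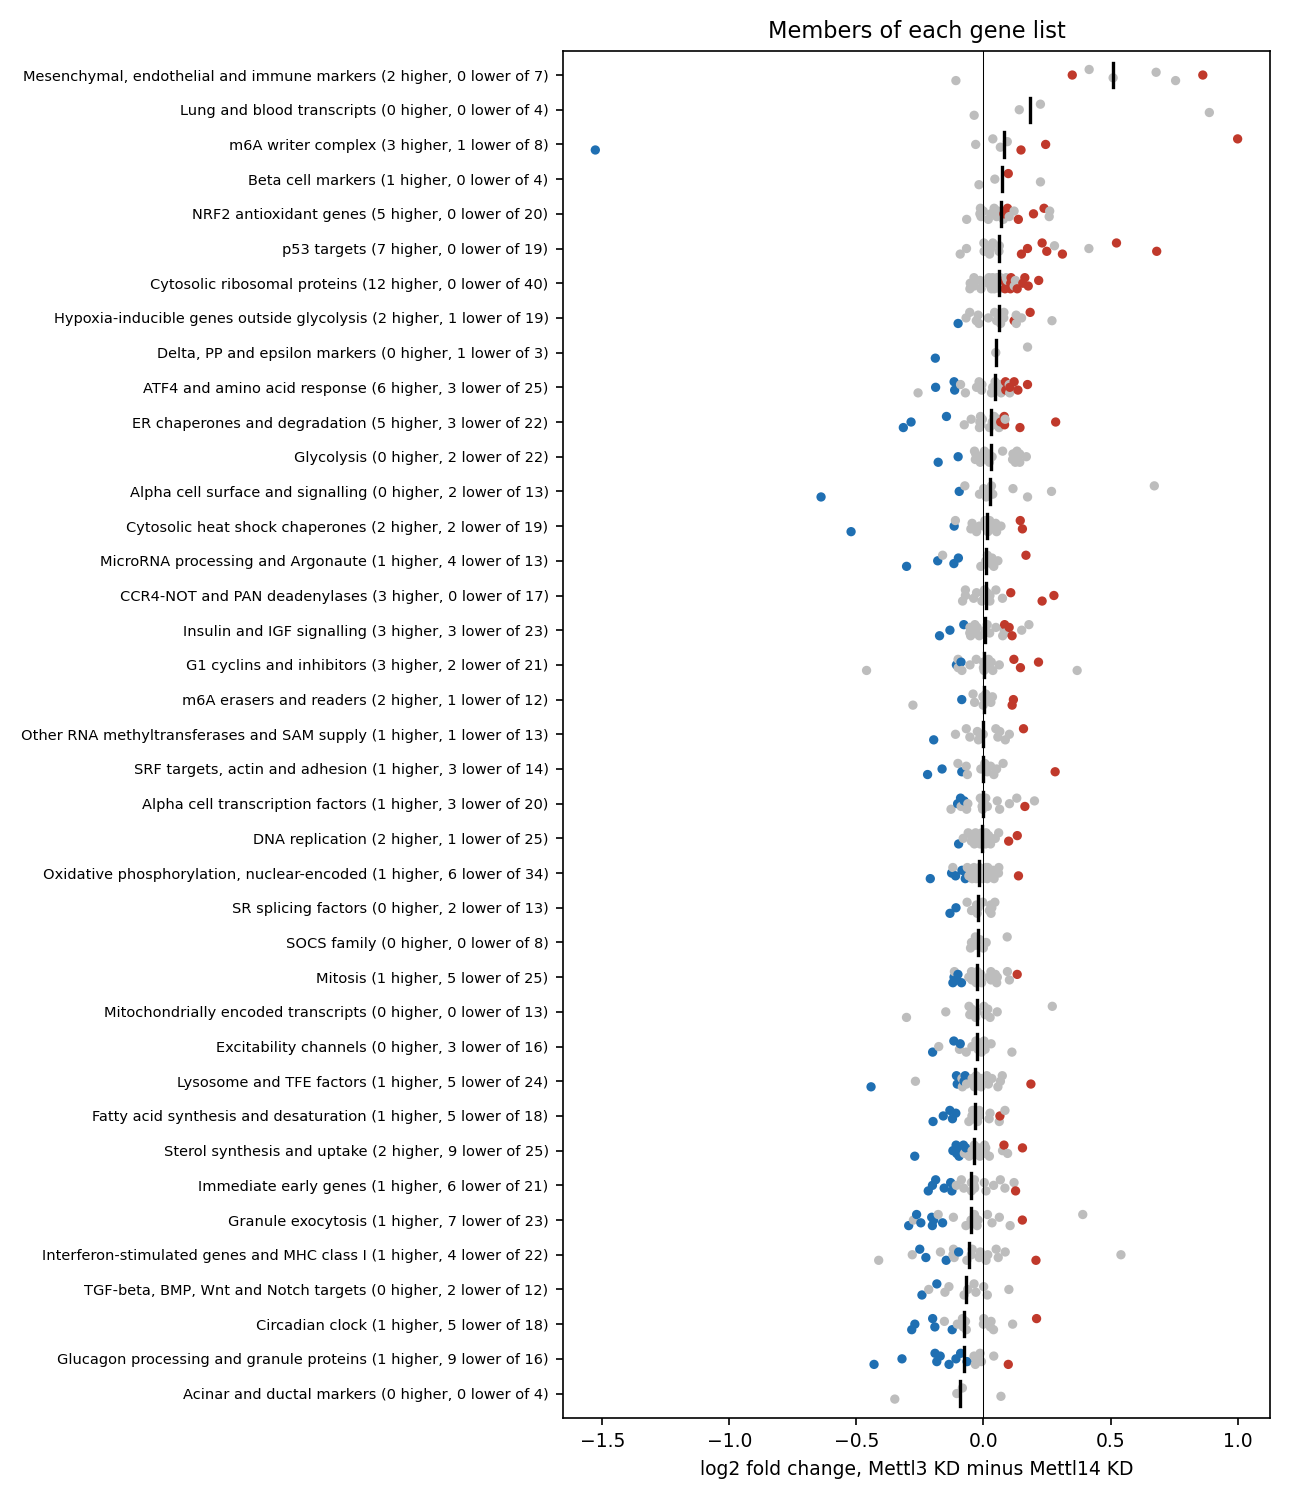
Log2 fold change of every measured member of 39 gene lists, Mettl3 KD minus Mettl14 KD, with lists ordered by their median (black bar). Red and blue points were called higher and lower in Mettl3 KD. The lowest medians are those of the acinar, granule and clock lists, and the highest those of the mesenchymal list and the lung and blood list. The acinar, mesenchymal, and lung and blood lists rest on 4 to 7 genes of low level.

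The hormone genes of beta, delta and PP cells were at or near 0: Ins1 reached 0.0955 CPM and Sst 0.143 CPM, both in Mettl14 KD replicate 2, and Ppy had no count in the 8 libraries. The acinar and ductal list summed to 23.7 to 26.9 CPM in Mettl3 KD and 23.9 to 27.7 CPM in Mettl14 KD, with no call among 4 genes tested. The lung and blood list summed to 4.08 to 6.83 and 2.65 to 5.84 CPM, also with no call among 4. The mesenchymal, endothelial and immune list summed to 13.2 to 17.6 CPM in Mettl3 KD and 8.89 to 12.4 CPM in Mettl14 KD, so that the ranges did not overlap. In that list Col1a2 was at 7.47 against 5.87 CPM (0.35) and Lyz2 at 0.691 against 0.375 CPM (0.86), and both rose among 7 tested. Both calls were lost without some single libraries and with 11 libraries, and the T cell marker Cd3e had no count. The beta list summed to 495.3 to 506.4 against 462.6 to 473.8 CPM, of which Slc30a8, also a granule gene, made up most. The beta cell genes Nkx6-1 (51.4 against 52.1 CPM) and G6pc2 (66.6 against 64.6 CPM) were expressed and not called. The delta, PP and epsilon list summed to 2156 to 2207 against 2014 to 2208 CPM, nearly all of it Rbp4, at 2129 against 2059 CPM and not called. In these bulk samples fewer cells of a type and less RNA per cell cannot be told apart, and the part of these markers in the other results was not tested.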

How the data were processed

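Messenger RNA of 11 aTC1-6 libraries was sequenced from stranded libraries, per the labels' protocols. The authors deposited estimated counts per gene, keyed by Ensembl identifiers; kallisto is named, without a version, in the submitters' processing notes. How transcripts were summed to genes, any scaling by length, and the authors' build: not given in the sources used here. Kallisto splits reads of near-identical transcripts by estimation, so such genes are less certain than their counts. No column of another sample was present. Of 53947 rows, 48651 matched a symbol, and rows without one held 0.518% of counts. Where rows shared a symbol, the row with most counts stood for it. The expected counts, 11.6% of them not whole, were rounded.

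The 8 knockdown libraries were fitted alone with edgeR 4.0.16 in R 4.3.3 (filterByExpr with a minimum count of 10, TMM factors, robust quasi-likelihood F-test, Benjamini-Hochberg adjustment at 0.05). The genes tested held 99.9% of counts, and the fit had 6 residual degrees of freedom. Each SE is the absolute log2 fold change over the square root of F, an approximation. Scramble CPM used the same genes and reference library. No replicate pair of a group agreed within sampling noise (lowest chi-square per degree of freedom 2.11). The fit was tested on simulated counts. Under TMM, RLE and upper-quartile factors the median of all genes moved by at most 0.003.

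Members, lists and tests were chosen with earlier results of these data known. The 39 lists hold 788 names, counting a gene once in each list that holds it. With each gene counted only once, 666 were tested. Named genes are Mettl3, Mettl14, Gcg and the writer complex; the 12 in each direction with the largest change among called genes with no overlap and at least 50 normalised counts on average; the 6 in each direction with the smallest p at 100 CPM or more; and 2 called members of each list. Some called list members are counted but not reported here by name. Every other gene named was chosen after its values were seen. Transcript lengths, GC and motifs came from the longest GENCODE vM21 transcript of each gene (coding where it has one), and promoters from RefSeq. Alternatives used DESeq2 1.42.0, limma 3.58.1 (voom), other scalings, filters and library sets.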

Additional observations from a re-analysis of the deposited data

Results flagged for a closer look

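In 20 of 314 groups of 4 libraries, the highest or lowest library of a named gene lay far from the others: its gap to the nearest one, as a share of the group's range, passed Dixon's critical value for 4 samples. Chance gives about 1 in 20 such groups. Mettl3 KD replicate 2 was the outlying library in 5 of them, Mettl3 KD replicate 1 in 4, and every other library in at most 3.

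Among genes of the granule and of exocytosis, Vgf in Mettl3 KD had a gap ratio of 0.92, with replicate 1 at 178 CPM and the others at 159 to 161 CPM. For Snap25 in Mettl3 KD it was 0.906, with replicate 2 the highest, and for Syt1 in Mettl3 KD 0.837, with replicate 3 the highest. All 3 genes were called, and for Vgf and Snap25 the outlying library still lay below every Mettl14 KD library.

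In Mettl3 KD the ratio was 0.834 for Elmo1, 0.97 for Gm45899, 0.84 for Tgif1, 0.83 for Acsl4 and 0.902 for Egr1. It was 0.906 for Cdkn2c, 0.933 for Mdm2, 0.912 for Zc3h13, 0.856 for Rbm15 and 0.895 for Tgfb2 in the same knockdown. Mdm2 was lowest in replicate 1, at 69.2 CPM against 75.5 to 75.9 CPM. For Rpl37rt the ratio was 1, since 3 of its 4 Mettl3 KD libraries were at 0.

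In Mettl14 KD the ratio was 0.878 for B2m, with replicate 4 at 38.7 CPM and the others at 33.0 to 33.7 CPM. It was 0.879 for Ndufa10, 0.857 for Cdh2, 0.873 for Ttyh1, 0.831 for Dcxr and 0.84 for Grap2.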

How the results depend on the processing

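No gene called over the 8 libraries was called in the opposite direction under any alternative. Counts moved by more than 1.5 times in these cases: with all 11 libraries in the fit, 1145 genes were called, 517 higher and 628 lower; against a fold of 1.2 (glmTreat), 36 were called, 7 higher and 29 lower; and DESeq2 called 688 higher (1468 in all). The genes of the 11-library fit included 1137 of the 2187. With RLE factors 2185 genes were called, with upper-quartile factors 2181, without a filter on low counts 2136, with a minimum count of 30 2218 and with limma-voom 1917. Leaving out 1 knockdown library gave 1674 to 1973 calls, 805 to 955 of them higher and 869 to 1018 lower.

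Replicate numbers are shared by the knockdowns, but same-numbered libraries did not deviate together: the 4 correlations of their deviations ran from -0.03 to 0.07, and those of all pairs from -0.06 to 0.07. With the replicate block 2405 genes were called, 1197 higher and 1208 lower, 2177 of them shared. Of the 148 called genes followed one by one, those of the naming rule and of the lists described in full, 113 kept the call without each library in turn, and 101 under every alternative; 41 lost it with 11 libraries, and none reversed. Other list members were followed through their list's count. Of 3 equal groups by CPM, 5.57% of the lowest and 26.4% of the highest were called; the part of depth was not tested.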

Other observations

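Calls in noncoding transcripts were counted by class. Of 389 lincRNA genes tested, 29 were lower and 5 higher; of 297 antisense genes, 12 and 1; and of 194 processed pseudogenes, 10 and 3. In each class the share called lower was under the 8.21% of all genes, and the share called higher under 7.83%. Protein-coding genes gave 1043 higher and 1042 lower calls of 11989. Leaving out 1 library gave 21 to 29 lower lincRNA genes and 3 to 6 higher, and the fit of 11 libraries 15 and 2. For processed pseudogenes the lower count ranged from 5 to 13 and was 1 with 11 libraries. AC122442.1 was at 3.20 against 5.08 CPM and 6330403L08Rik at 5.25 against 8.19 CPM.

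The remaining gene lists, here and in the next paragraph, gave mixed calls, beside 7.83% of all genes called higher and 8.21% lower. Lysosome genes gave 5 lower and 1 higher call of 24: Ctsz, a cathepsin gene, was at 708, 690, 687 and 710 CPM in Mettl3 KD and at 615, 617, 605 and 620 CPM in Mettl14 KD (0.19), while Sqstm1, the autophagy receptor gene, fell by 0.10 and Gpnmb by 0.44. Lower lysosome genes numbered 3 with any 1 of Mettl3 KD replicates 2, 3 and 4 and Mettl14 KD replicates 3 and 4 left out, by DESeq2, by limma-voom and with upper-quartile factors, and 2 with 11 libraries. Actin and adhesion genes gave 1 higher and 3 lower calls of 14, with the thrombospondin gene Thbs1 higher by 0.28 and Ccn2 (-0.22), the N-cadherin gene Cdh2 (-0.16) and Tagln2 (-0.09) lower. Of 21 G1 genes, Ccnd2 (0.22), E2f2 (0.15) and Ccne1 (0.12) rose and Cdkn2c (-0.09) and Rbl1 (-0.11) fell. Lower G1 genes numbered 1 on leaving out any 1 library but Mettl3 KD replicate 4, and 0 without that library or with 11 libraries. Higher ones numbered 1 without Mettl3 KD replicate 2 and by DESeq2. Ccnd2 was at 14.7 against 12.7 CPM while scramble was at 7.30 CPM.

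Of 19 hypoxia-inducible genes outside glycolysis, Epas1 (0.18) and Ddit4 (0.12) rose and Vegfa (-0.10) fell. Higher hypoxia genes numbered 2 without Mettl14 KD replicate 2 or 3, 1 without any other library and 0 with 11 libraries. With scramble replicate 2 alone left out of the fit Ddit4 was not called (adjusted p = 0.130, edgeR's quasi-likelihood test). Vegfa was at 154 against 165 CPM, and scramble was at 248 CPM. Of 13 genes of other RNA methyltransferases and methyl donor supply 1 rose and 1 fell: Zcchc4, which methylates ribosomal RNA, fell by 0.20. That list had no lower call with any 1 of Mettl3 KD replicate 4 and Mettl14 KD replicate 2 left out and by DESeq2, and 2 in each direction without Mettl3 KD replicate 1. Among SR splicing factors Srsf4 (-0.13) and Srek1 (-0.11) fell of 13, and among targets of TGF-beta, BMP, Wnt and Notch signals Tgif1 (-0.24) and Hes1 (-0.18) fell of 12. The last list gave 1 lower call with any 1 of Mettl3 KD replicates 2 and 3 and Mettl14 KD replicates 1 and 2 left out, by DESeq2 and with 11 libraries. Of 13 alpha cell surface genes Ttyh1 (-0.10) and Cd9 (-0.64) fell, the latter at 1.42 against 2.21 CPM. Lower surface genes numbered 1 without Mettl14 KD replicate 1, 3 or 4, by DESeq2 and with 11 libraries. Of 3 delta, PP and epsilon genes tested, Sstr3 fell by 0.19.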
